A study of Mus musculus with 3 samples.

Results

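The comparison described here sets activated T cells from aged mice against activated T cells from young mice, over all 17796 genes of the deposited expression table. It uses 2 of the 3 libraries of the study, the one titled Old and the one titled Young, and its members are every listed gene, with none left out. The mice were of the inbred strain C57BL/6. The young mice were 2 months old and are labelled as given vehicle, the carrier solution without drug. The aged mice, with a stated age of 24 months, received vehicle 3 times per week for 2 months before their T cells were taken. A further library came from aged mice that received fumarate, a metabolite of the mitochondrial citrate cycle, at 10 mg/kg on the same schedule. It enters no ratio below. Its level is printed beside named genes as another aged sample, which was also treated. Spleen T cells of all groups were cultured for 3 days on plates coated with antibody against CD3 (2 ug/ml) and CD28 (5 ug/ml), with interleukin 2 at 100 IU/ml and 10% serum. The labels give no sex, no number of mice per library and no purity of the isolated cells, and each group has 1 library. Every difference below therefore lacks a replicate check, has no p-value and compares 2 libraries rather than 2 ages, and overlap between groups cannot be judged.

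A naive T cell carries a receptor for antigen and divides rarely. Antibodies against CD3 stand in for the antigen by clustering the receptor complex, antibodies against CD28 supply the co-stimulatory signal, and interleukin 2 sustains growth. Within hours such cells raise glycolysis, amino acid uptake and ribosome production, and over days they divide and acquire effector functions such as secretion of cytokines and release of granules holding perforin and granzymes. In old mice the pool of T cells is known to hold fewer naive and more memory and effector cells, and old cells in culture are known to enter division and to turn on one-carbon metabolism less readily. Splenic preparations can also carry red cell precursors, megakaryocytes, basophils, mast cells and phagocytes, because the mouse spleen makes blood cells throughout life.

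Values are CPM, the reads of a gene scaled so that each library adds to 1000000. Where 3 values are printed for a gene they stand in the order young, aged vehicle, fumarate. Differences are log2 ratios of CPM + 1, aged vehicle over young. The constant of 1 keeps genes near 0 from giving extreme ratios, and it shrinks the ratios of genes at low levels. Genes are counted past 2-fold, and members of gene lists past 1.5-fold when their mean over the 2 libraries reached 1 CPM. Where an interval is printed it is a 95% Clopper-Pearson interval for the log2 ratio of plain CPM and covers counting error alone. Depth, estimated from the worth of 1 read, was near 41.0 M reads in young, 17.3 M in aged vehicle and 13.9 M in fumarate. A count of 0 allows up to 3 reads, which equal 0.0732 CPM in young and 0.174 CPM in aged vehicle.

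Many genes were higher and few were lower in the aged library. Of 17796 genes, 1595 (8.96%) exceeded the young level by 2-fold or more and 304 (1.71%) lay below it by as much, while the median log2 ratio was 0.04. The imbalance was larger for large ratios, with 653 genes at least 4-fold higher against 33 lower, and 239 at least 10-fold higher against 1 lower, which was Nrn1. Among the 13844 genes whose mean reached 1 CPM, 76.4% lay within 1.5-fold, 16.8% lay above by 1.5-fold or more and 6.8% below. These last shares are the background for list counts over measured members; over every listed gene they were 16.1% and 5.91%. The share of higher genes was largest at low expression. In the lowest of 5 expression groups of protein-coding genes the share at 2-fold or more was 29.5%, against 3.03% in the highest group. A scaling that brought the T cell receptor list to no difference moved the median of all genes from 0.04 to 0.31, so many list medians just below 0 turn positive under it, and this is said where it applies.

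**Figure D1:**
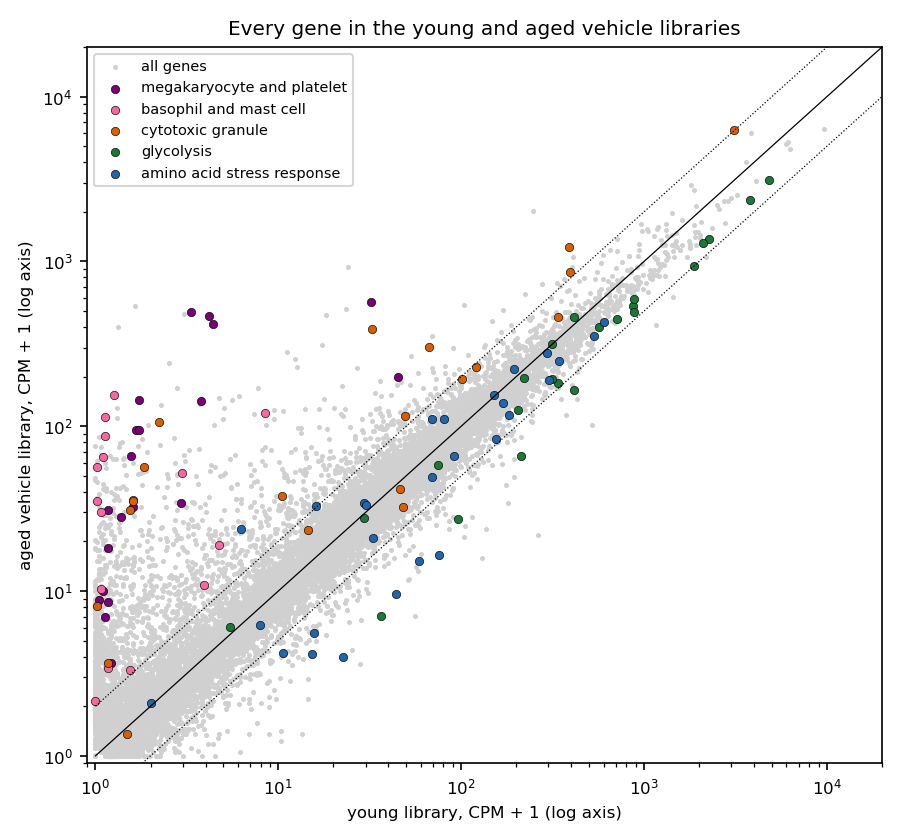
Each point is a gene, with CPM + 1 in the young library on the horizontal and in the aged vehicle library on the vertical log axis; the solid line marks equal levels and the dotted lines 2-fold. Platelet and basophil or mast cell markers lie far above the diagonal at low young levels, glycolysis genes lie below it at high levels, and the single gene at least 10-fold lower is Nrn1.

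The T cell label was first set against markers. The receptor complex genes were well expressed in both libraries. Cd3e, a chain of the signalling complex, was at 115 and 77.1 CPM. Trac, the constant part of the receptor alpha chain, was at 243 and 167 CPM, both in the order young, aged vehicle. The coreceptor genes were present too, Cd8a with 229 and 187 CPM and Cd4 with 238 and 180.1 CPM. Of 24 receptor complex and coreceptor genes, 22 lay within 1.5-fold, 2 were lower and none was higher, with a median log2 ratio of −0.33. Fewer T cells in a library and less T cell receptor RNA per cell cannot be told apart in such bulk RNA.

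Platelet and megakaryocyte markers were higher in the aged vehicle library, most of them from levels near 0 in the young library. All 20 platelet and megakaryocyte genes listed in the table lay above young by 1.5-fold or more (median log2 ratio 4.34), and their summed level was 93.4, 2846 and 521 CPM in the young, aged vehicle and fumarate libraries. Thbs1, which encodes the platelet granule protein thrombospondin, was at 2.34, 492 and 43.6 CPM in that order. Selp, a platelet and endothelial adhesion molecule, was at 44.1, 197 and 149 CPM. Aged vehicle was the high library for both, fumarate was intermediate and young was low.

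Markers of red cell precursors, basophils and mast cells were higher too. Of 17 erythroid genes in the table, 16 passed 1.5-fold upward and none downward. Gata1, the transcription factor of red cell and megakaryocyte precursors, was at 0.829, 51.8 and 5.77 CPM. Hba-a1, an alpha globin, was at 0.446, 14 and 0.433 CPM. Tfrc, the transferrin receptor that dividing T cells also carry, lay within 1.5-fold at 921, 729.9 and 876 CPM. All 16 basophil and mast cell genes in the table were higher, with summed levels of 18.2, 786 and 189 CPM. The basophil protease Prss34 stood at 0.0244, 55.7 and 4.98 CPM. Ms4a2, a chain of the high-affinity IgE receptor, was at 0.0732, 29.1 and 4.04 CPM. All 17 blood progenitor genes were higher too, with Lmo2, a partner of blood transcription factors, at 0.708, 96.8 and 11.6 CPM. Kit, the stem cell factor receptor, was at 2.90, 9.85 and 2.89 CPM. Fumarate was at the young level for Hba-a1 and Kit and between the others for Gata1, Prss34, Ms4a2 and Lmo2.

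Each of the remaining lists of other cells had more members higher than lower, by differing shares. Of 11 macrophage and monocyte genes, 10 were higher, but their summed level reached only 7.84 and 66.3 CPM, and Lyz2, a lysozyme of phagocytes, was at 0.0488, 9.38 and 0.722 CPM. Of 15 B cell genes, 5 were higher and none lower, and the defining gene Ms4a1 was low in both libraries. Ms4a1, which encodes CD20, was at 0.659 and 0.869 CPM. Transcripts of antibody genes were nevertheless higher, with Ighg1 at 0.415, 17.7 and 2.89 CPM. Jchain, the joining chain of secreted antibodies, was at 0.561, 12.4 and 2.60 CPM. Of 10 eosinophil and neutrophil genes 9 were higher and none lower, with summed levels of 0.195, 18.7 and 3.68 CPM. In the young library 9 of the 10 were at no more than 3 reads. Prg2, of that list, was at 0.0732, 6.37 and 1.37 CPM. The neutrophil genes S100a8 and S100a9 were listed at 0 in the young and the fumarate libraries and at 1.45 and 1.62 CPM in the aged vehicle library. Of 12 NK cell genes 9 were higher and none lower, with summed levels of 123, 193 and 255 CPM that were highest in fumarate. Of 13 innate lymphoid cell genes 11 were higher and none lower, with summed levels of 143, 503 and 423 CPM, and of 9 genes of gamma delta and natural killer T cells 6 were higher and none lower. Of 10 stromal and endothelial genes 6 were higher and 1 lower. Of 12 dendritic cell genes 8 were higher and 1, Irf8, lower, while their summed level was lower in the aged vehicle library (601, 442 and 533 CPM). Of 11 plasma cell genes 4 were higher and 1, Irf4, lower, and their summed level was likewise lower (1257, 1110.4 and 1144 CPM). Activated T cells also express Irf8 and Irf4, which hold much of these sums. Many of these marker genes had under 1 CPM in the young library, and such genes passed the expression minimum through the aged library alone, and counts over all listed members are printed for that reason. What part RNA of other cells had in the gene groups described next was not tested. Leaving out every gene of the 13 other-cell lists left 17630 of the 17796 genes, with 1484 at 2-fold or more above young and 302 below. The lists hold markers and not every gene that those cells express, so these counts do not measure that part.

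Outside the marker lists, the highest ratios belonged to genes with varied known roles. Muc13, a cell surface mucin, was at 0.317, 128 and 8.59 CPM. Timp3, an inhibitor of matrix metalloproteases, was at 2.06, 478 and 42.6 CPM. Ifitm1, a membrane protein of the antiviral response, was at 1.54, 242 and 37.2 CPM. Adgrg1, an adhesion receptor of cytotoxic lymphocytes and blood progenitors, was at 1.78, 171 and 15.6 CPM. Syk, the kinase that B cells and myeloid cells use where T cells use Zap70, was at 1.29, 133 and 14.4 CPM. Zap70 itself lay within 1.5-fold at 178, 132 and 153 CPM. The first 5 of these genes were each high in aged vehicle, low in young and between in fumarate. Sprr2a2, of a family of epithelial envelope proteins with near-identical copies, was listed at 0 in the young library and at 74.4 CPM in aged vehicle and 1.15 CPM in fumarate. Aged vehicle was at least 1016-fold higher when the young library is set to 3 reads. Casp12, an inflammatory caspase, was at 0.195, 65.0 and 7.15 CPM.

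The lowest ratios formed a different set, and for them the fumarate library lay nearer to aged vehicle than to young. St6gal1, the enzyme that caps surface sugars with alpha-2,6 sialic acid (chromosome 16, 23224740 to 23360350, mm10), was at 129, 14.8 and 27.9 CPM. Its log2 ratio was −3.04, with a counting interval of −3.31 to −2.94. Smtnl2, a smoothelin-like protein, was at 9.39, 0.232 and 0.794 CPM. Zfp395, a zinc finger protein, was at 55.0, 6.08 and 11.6 CPM. Nsg2, an endosomal protein best known in neurons, was at 26.9, 2.61 and 6.06 CPM. Young was the high library in each case and both aged libraries were low. Bend5 and Pla2g4f, a cytosolic phospholipase, were at 9.39, 0.405 and 1.37 CPM and at 7.90, 0.348 and 1.52 CPM. Trat1, an adaptor bound to the T cell receptor, was at 12.4, 0.348 and 0.577 CPM and had the lowest ratio of the receptor complex list.

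**Figure D2:**
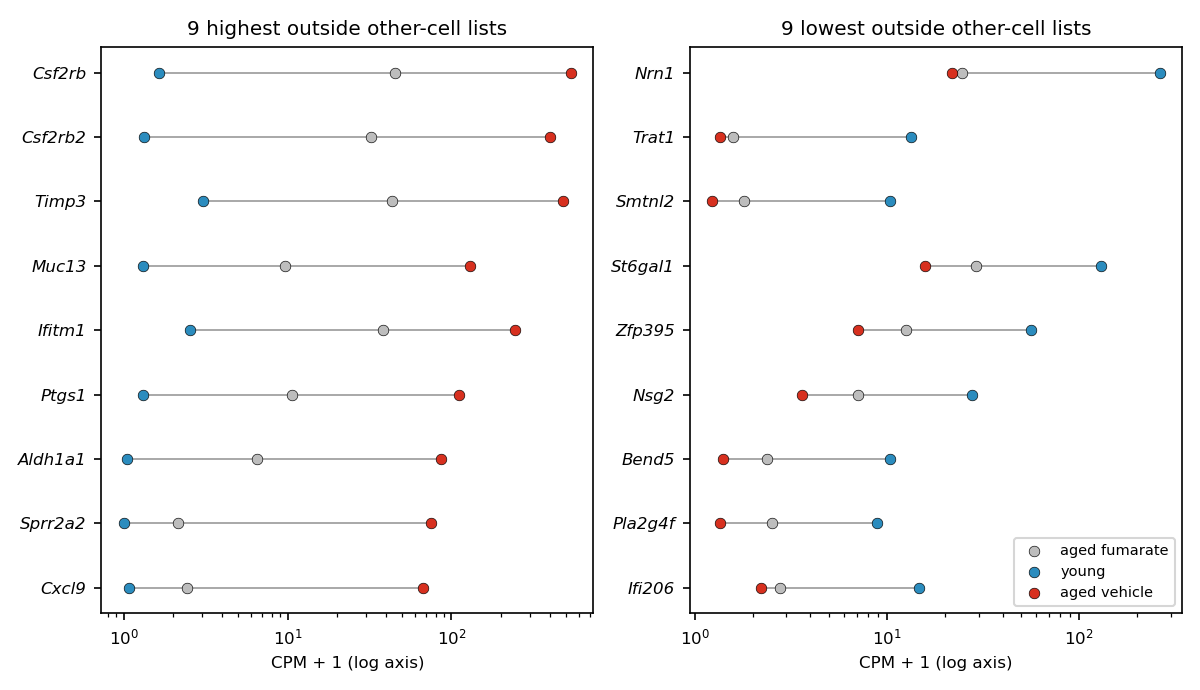
CPM + 1 on a log axis for the 9 highest (left) and 9 lowest (right) protein-coding genes outside the other-cell lists, with 1 point per library. On the left the fumarate library lies between young and aged vehicle for all 9 genes, and on the right it lies nearer to aged vehicle than to young in CPM for all 9.

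Granule genes were higher in the aged library. Of 19 measured granule genes 16 passed 1.5-fold upward and none downward (median 1.65), with 5 of the 19 under 1 CPM in the young library. Srgn, the proteoglycan core that holds granule proteases, was at 386, 1230.3 and 979 CPM. Serpinb9, which protects a killer cell from its own granzyme B, was at 395, 863 and 1123 CPM. Gzmc and Gzmg, granzymes encoded beside Gzmb, were at 31.5, 386 and 586 CPM and at 0.0244, 7.07 and 13.5 CPM. For these genes the fumarate library was as high as aged vehicle or close to it. Fasl, the death ligand, stayed within 1.5-fold at 46.8, 31.6 and 50.2 CPM. The NK cell list, which holds Gzma, had 9 of 11 measured members higher (median 2.17), with 6 of the 11 under 1 CPM in the young library. The part of NK cell RNA in the granule genes was not tested. The granzymes c to g are near-identical copies, and how reads were divided among them is uncertain.

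Most cytokine genes were higher. Of 29 measured interleukins and related cytokines, 21 were higher and 4 lower (median 1.56), with 8 of the 29 under 1 CPM in the young library. Members that were higher included Il13 at 7.47, 119.8 and 78.4 CPM, Il9 at 0.317, 6.31 and 5.56 CPM, Il17f at 1.81, 29.8 and 9.82 CPM and Il4 at 0.171, 2.43 and 1.44 CPM. The innate lymphoid list, which shares Il13, had 11 of 12 measured members higher (median 1.77), with 6 of the 12 under 1 CPM in the young library. Among the higher members was the interleukin 33 receptor Il1rl1 at 0.61, 34.5 and 5.77 CPM. The basophil list above shares Il13 and Il4, and the part of either kind of cell in these cytokines was not tested. Growth factors for myeloid cells were higher as well, Il3 at 23.5, 52.4 and 36.5 CPM and Csf2 at 22.7, 59.9 and 60.6 CPM. Il2 and Tnf, products of early activation, lay within 1.5-fold at 24.0, 20.8 and 9.91 CPM and at 29.3, 27.3 and 29.1 CPM. The lower cytokines included Ltb, the membrane partner of lymphotoxin alpha, at 103, 20.2 and 40.3 CPM. Il16, a chemoattractant made by resting T cells, was at 84.4, 25.4 and 38.9 CPM. Il1b, a product of myeloid cells, was at 0.0732, 20.3 and 1.44 CPM, high in aged vehicle alone.

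Chemokines were higher and their receptors went both ways. The table lists 19 chemokines, of which 17 were higher and none lower, with 6 of the 19 at no more than 3 reads in the young library. The list includes the platelet chemokines Pf4 at 3.17, 468 and 51.3 CPM and Ppbp at 2.78, 141 and 41.4 CPM. The part of platelet or myeloid RNA in the chemokine counts was not tested. Ccl3 and Ccl4, chemokines that effector T cells release, were at 103, 541 and 421 CPM and at 68.5, 351 and 265 CPM. Ccl9, a related chemokine, was at 17.2, 469 and 453 CPM. The interferon-induced Cxcl10 was at 3.98, 49.3 and 4.91 CPM. Among 16 measured receptors 7 were higher and 3 lower, with 3 of the 16 under 1 CPM in the young library. Cxcr6, a receptor of tissue-resident and effector cells, was at 7.17, 70.7 and 47.6 CPM, with both aged libraries high. Ccr6, a receptor of type 17 and memory cells, was lower at 12.7, 2.90 and 3.25 CPM.

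Transcription factors of activation went both ways, and the median of the 28 factors was −0.08, or 0.24 when scaled to the receptor list. Nr4a3, an orphan nuclear receptor that the T cell receptor turns on within hours and that restrains effector genes, was at 517, 101 and 156 CPM. Its log2 ratio was −2.34, with a counting interval of −2.42 to −2.28. Its relative Nr4a1 was at 189, 91.6 and 104 CPM, whereas Nr4a2 was higher at 55.0, 87.2 and 90.5 CPM, so the family did not share a direction. Irf8 and Irf4, interferon regulatory factors whose levels follow the strength of receptor signalling, were at 428, 146 and 238 CPM and at 696, 419 and 435 CPM. Both were lower. Egr1 and Egr3, further receptor-induced factors, went in opposite directions at 36.4, 83.9 and 37.4 CPM and at 49.9, 22.9 and 24.6 CPM. Egr1 in the fumarate library was at the young level.

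Factors that steer effector fate were among those that were higher. Batf, a partner of Irf4, was at 31.8, 92.7 and 79.3 CPM. Prdm1, which encodes Blimp-1, was at 2.46, 23.9 and 17.5 CPM. Maf was at 2.12, 31.5 and 9.74 CPM. The inhibitors of DNA binding were split. Id2, known from effector cells, was at 30.8, 118 and 138 CPM. Id3, known from naive and memory precursors, was at 23.4, 5.44 and 5.49 CPM. Runx1 and Runx2, core binding factors, were at 16.2, 65.1 and 12.7 CPM and at 35.9, 114 and 125 CPM, with fumarate below the young level for Runx1 and at the aged level for Runx2. Klf4, a factor of quiescence, was lower at 18.5, 5.56 and 5.99 CPM, while Klf2, the factor of naive cell traffic, was at 8.56, 10.8 and 5.85 CPM. Over the 32 effector and memory factors 9 were higher and 5 lower (median 0.09, or 0.00 with upper-quartile scaling).

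Receptor signalling also carried brakes. Of 27 inhibitors of signalling, 9 were higher and 2 lower (median 0.28). Rgs2 and Rgs16, which shut off G protein signals, were at 71.3, 169 and 137 CPM and at 56.2, 124 and 98.0 CPM. Tnfaip3, the ubiquitin-editing enzyme of NF-kB control, was at 133, 303 and 281 CPM. Cblb, a ubiquitin ligase that raises the threshold for activation, and Dusp4, a MAP kinase phosphatase, were lower at 303, 187 and 247 CPM and at 308, 171 and 204 CPM. Both aged libraries lay on the same side of young for all 5 of these genes. Members of the tumour necrosis factor family went both ways, with Tnfrsf8, which encodes CD30, higher at 16.8, 145 and 264 CPM and Tnfrsf4, the co-stimulatory receptor OX40, lower at 350.1, 146 and 156 CPM.

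Genes of naive and homing cells had a median of −0.25, or 0.08 when scaled to the receptor list, with 4 of 19 higher and 6 lower. Actn1, an alpha actinin, was at 192, 81.8 and 83.2 CPM. Il6ra, the interleukin 6 receptor, was at 23.1, 10.6 and 10.6 CPM. Sidt1 was at 25.4, 12.2 and 15.4 CPM. These 3 genes were low in both aged libraries. S1pr1, the receptor that guides cells out of lymphoid organs, was higher at 18.3, 46.3 and 71.9 CPM. Cd44, the memory marker, was higher at 285, 442 and 456 CPM, and Il2ra, the induced chain of the interleukin 2 receptor, stayed within 1.5-fold at 1047, 1532 and 2086 CPM.

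Genes of glycolysis lay lower in the aged vehicle library. Of 23 members 15 lay below young by 1.5-fold or more and none above it by as much, with a median log2 ratio of −0.69 that was −0.36 when scaled to the receptor list. At entry, Slc2a1, the basal glucose transporter, was at 339, 183 and 261 CPM, whereas Hk1 and Hk2, which trap glucose as its phosphate, lay within 1.5-fold at 412, 459.9 and 396 CPM and at 313, 316 and 367 CPM. Phosphofructokinase genes were lower only for Pfkl, at 311, 193 and 239 CPM, with Pfkp at 567, 398 and 426 CPM and Pfkm at 28.3, 26.6 and 16 CPM. Most genes between glucose uptake and aldolase stayed within the limit.

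From aldolase onward every measured member but Pgam1 was past the limit. Aldoa and Aldoc, the aldolases, were at 2259, 1376 and 1744 CPM and at 35.5, 6.02 and 9.89 CPM. Tpi1, triose phosphate isomerase, was at 1872, 934 and 1379 CPM. Gapdh, the dehydrogenase often used as a reference gene, was at 874, 538 and 695 CPM. Pgk1, phosphoglycerate kinase, was at 881, 493 and 722 CPM. The enolases Eno1 and Eno3 were at 2112, 1298 and 2028 CPM and at 94.5, 26.2 and 43.0 CPM. Pkm, pyruvate kinase, was at 4843, 3124 and 4234 CPM. Young was the high library for each of these 8 genes, aged vehicle the low one and fumarate lay between. Pgam1, phosphoglycerate mutase, was just inside the limit at 884, 594 and 834 CPM. Slc16a1, a lactate carrier at the exit of the pathway, was lower at 204, 125 and 141 CPM.

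Genes known as targets of hypoxia-inducible factor outside glycolysis lay below young by 1.5-fold or more in 16 of 27 cases, with 1 above (median −0.66, or −0.32 when scaled to the receptor list). The prolyl hydroxylases that destroy the factor, Egln1 and Egln3, were at 239.9, 106 and 153 CPM and at 194, 48.1 and 63.4 CPM. Bnip3, a mitophagy receptor, was at 194, 62.4 and 109 CPM. Bnip3l was at 194, 108 and 108 CPM. P4ha2, a collagen prolyl hydroxylase, was at 30.0, 8.69 and 13.3 CPM. Ak4, a mitochondrial adenylate kinase, was at 89.1, 27.0 and 39.6 CPM. Vegfa, the vascular growth factor, was at 72.1, 28.0 and 32.0 CPM. All 7 were lowest in aged vehicle, or level with fumarate in the case of Bnip3l. Exceptions were Kdm3a, a histone demethylase, within 1.5-fold at 86.4, 71.1 and 81.3 CPM, and Car9, a carbonic anhydrase, which was higher at 0.268, 2.38 and 0.505 CPM.

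Promoter sequences from RefSeq (GRCm38.p6) were read because most members of both lists lay in 1 direction. Windows from 250 bases before to 50 bases after each start were searched on both strands for ACGTG, the core that hypoxia-inducible factor binds. Of 20 promoters of 13 lower hypoxia targets, 13 (65.0%) held it, as did 3 of 9 promoters of targets within 1.5-fold. Of 23 promoters of lower glycolysis genes 10 (43.5%) held it, against 7 of 12 for glycolysis genes within 1.5-fold. The share was 25.8% for promoters of all genes with at least 1 CPM and 19.6% for all 32851 promoters. The core overlaps the E-box CACGTG that other factors bind, the lists were drawn from known targets, and the share did not separate lower from other members of glycolysis. Of the 27 measured hypoxia targets 21 had a promoter in the RefSeq table. The 2 stretches below end at the base before the start, and were picked because they hold the core, shown in capitals, in genes that were lower. The first is chr7:138909507-138909656 on the minus strand and the second chrX:106186920-106187099 on the plus strand.
Bnip3: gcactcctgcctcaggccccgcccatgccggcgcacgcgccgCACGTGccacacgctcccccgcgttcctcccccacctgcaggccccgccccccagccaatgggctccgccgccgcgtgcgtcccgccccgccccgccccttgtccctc
Pgk1: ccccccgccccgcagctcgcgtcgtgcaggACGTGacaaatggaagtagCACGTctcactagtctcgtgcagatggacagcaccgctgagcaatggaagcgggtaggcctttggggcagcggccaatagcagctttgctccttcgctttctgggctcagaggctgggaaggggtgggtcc

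**Figure D3:**
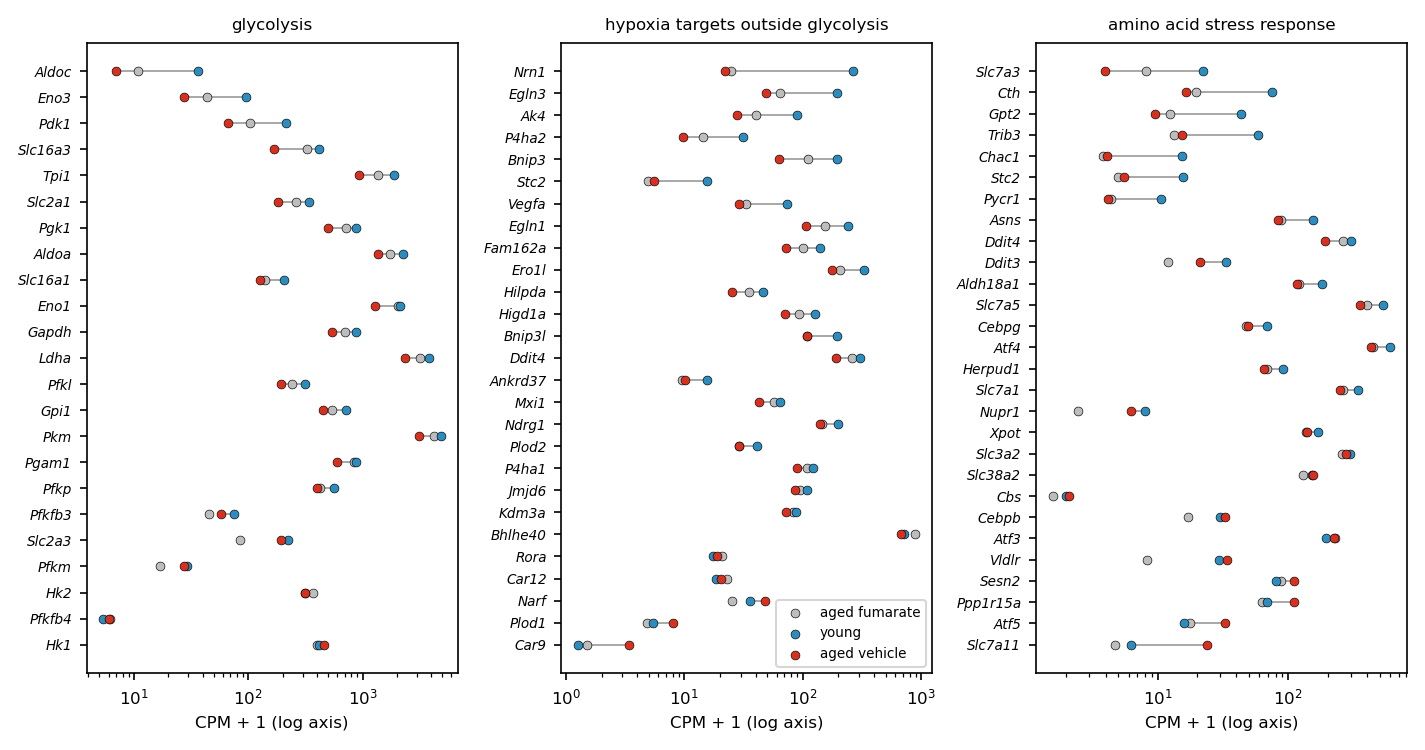
CPM + 1 on a log axis for the measured members of 3 lists, ordered by their log2 ratio, with 1 point per library and a line from young to aged vehicle. Most glycolysis and hypoxia genes have young on the right, aged vehicle on the left and fumarate between. In the amino acid stress list the fumarate library lies close to aged vehicle for Cth, Gpt2, Trib3 and Chac1. It lies between the others for Slc7a3 and nearer to young for Slc7a11.

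RNA of amino acid metabolism genes was lower in named branches. ATF4 is the transcription factor that growing or starved cells use to raise amino acid synthesis and import, and of 28 genes of its response 12 were lower and 3 higher (median −0.48, or −0.15 when scaled to the receptor list). Cth, which makes cysteine from cystathionine, was at 74.6, 15.6 and 18.8 CPM. Gpt2, an alanine aminotransferase, was at 42.7, 8.63 and 11.5 CPM. Asns, asparagine synthetase, was at 153, 82.7 and 87.3 CPM. Trib3, a pseudokinase that restrains signalling, and Chac1, which breaks down glutathione, were at 57.7, 14.3 and 12.3 CPM and at 14.2, 3.13 and 2.82 CPM. Young was high and both aged libraries were low for all 5. Slc7a3, a carrier of cationic amino acids, was lower at 21.4, 2.95 and 7.22 CPM, while Slc7a11, the cystine carrier, was higher in aged vehicle alone at 5.24, 22.9 and 3.72 CPM. Atf4 itself was at 600.2, 428 and 447 CPM, within 1.5-fold.

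Several serine and one-carbon genes were lower. Phgdh, Psat1 and Psph, the chain that makes serine from a glycolytic intermediate, were at 401, 176 and 226 CPM, at 417, 267 and 274 CPM and at 81.8, 37.3 and 43.0 CPM. The mitochondrial folate enzymes Shmt2, Mthfd2 and Mthfd1l were at 500.3, 285 and 332 CPM, at 304, 172 and 208 CPM and at 240.5, 135 and 166 CPM. All 6 were past the 1.5-fold limit. The cytosolic enzymes Shmt1 and Mthfd1 lay within 1.5-fold at 87.0, 77.1 and 95.5 CPM and at 191, 166 and 183 CPM. The list as a whole had 7 of 19 lower and 2 higher, and its median of −0.28 was 0.04 when scaled to the receptor list. Of 20 enzymes that load transfer RNA, 4 were lower and none higher (median −0.38), with Nars at 457, 254 and 286 CPM and Cars at 128, 68.6 and 82.9 CPM.

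The sequence TGATGNAA, a core that ATF4 binds with a partner factor, was found in 4 of 9 promoters of lower members of the amino acid list, in 9 of 28 promoters of all measured members and in 5 of 13 promoters of the synthetases, on either strand. It stood in 2.23% of promoters of genes with at least 1 CPM and in 3.97% of all. The list was drawn from known targets, so the share describes these promoters and no more. The 2 stretches below were picked because they hold the core, in capitals, before the start of lower genes. Chac1, where the core is on the opposite strand, is shown from chr2:119351022-119351241 on the plus strand and Pycr1, a proline synthesis enzyme at 9.59, 3.19 and 3.39 CPM, from chr11:120643749-120643878 on the minus strand.
Chac1: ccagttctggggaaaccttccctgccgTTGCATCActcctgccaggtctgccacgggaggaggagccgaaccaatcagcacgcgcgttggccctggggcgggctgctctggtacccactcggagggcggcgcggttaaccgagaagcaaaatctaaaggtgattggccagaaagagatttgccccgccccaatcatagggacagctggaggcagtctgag
Pycr1: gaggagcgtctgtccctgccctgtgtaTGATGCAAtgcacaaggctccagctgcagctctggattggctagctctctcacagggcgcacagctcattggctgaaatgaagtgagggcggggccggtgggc

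RNA of lipid synthesis genes was lower in part. Of 23 cholesterol synthesis genes 6 were lower with none higher (median −0.47, or −0.15 when scaled to the receptor list). Hmgcs1, an early enzyme, was at 449.9, 254 and 315 CPM, and Pmvk and Cyp51, later enzymes, at 54.9, 24.1 and 27.4 CPM and at 416, 251 and 282 CPM. The desaturases Scd1 and Scd2, which put a double bond into fatty acids, were at 178, 33.1 and 84.2 CPM and at 1445, 608 and 937 CPM. These were 2 of 3 lower genes in a fatty acid list of 17, in which 3 were higher. Me1, which supplies reducing power for that synthesis, was higher at 1.37, 9.91 and 15.2 CPM.

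Mitochondrial genes differed by the genome that encodes them. All 13 protein-coding transcripts of mitochondrial DNA had positive log2 ratios, 9 of them past 1.5-fold (median 0.66, or 0.56 with upper-quartile scaling). mt-Co1, a catalytic subunit of cytochrome oxidase, was at 3829, 6027 and 5141 CPM. mt-Nd5, a subunit of complex I, was at 596, 1100.1 and 979.5 CPM. Nuclear genes of complex I had a median of −0.12 with 1 of 37 lower and none higher, and those of complexes III, IV and V a median of −0.14 with all 36 within 1.5-fold. Both medians turned positive when scaled to the receptor list (0.21 and 0.19). Of 27 tricarboxylic acid cycle genes 25 lay within 1.5-fold. Fh1, fumarate hydratase, was at 96.3, 68.1 and 65.9 CPM, and Idh1, cytosolic isocitrate dehydrogenase, was higher at 10.6, 28.0 and 8.23 CPM.

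Most measured glutathione genes and NRF2 targets were higher. NRF2 is the factor that raises glutathione synthesis and detoxifying enzymes when oxidants inactivate its inhibitor, and of 30 glutathione genes and NRF2 targets 19 were higher and 2 lower (median 1.03). Of these 30 genes 4 were under 1 CPM in the young library. Gclm, the regulatory subunit of the first enzyme of glutathione synthesis, was at 43.7, 178 and 49.6 CPM, while the catalytic subunit Gclc was within 1.5-fold at 38.1, 50.6 and 37.3 CPM. Srxn1, which repairs peroxiredoxins, was at 12.4, 96.6 and 34.0 CPM. Txnrd1, thioredoxin reductase, was at 236, 376 and 357 CPM. Gstt1, a glutathione transferase, was at 2.10, 60.9 and 3.68 CPM. Nfe2l2, the gene of NRF2, was at 48.4, 101 and 52.2 CPM. Keap1, its inhibitor, was at 115, 119 and 114 CPM. For Gclm, Gstt1 and Nfe2l2 the fumarate library was near the young level, while for Txnrd1 it was near aged vehicle. A separate list of 16 genes that remove peroxide and superoxide had 12 within 1.5-fold, 3 higher and 1 lower (median −0.04, or 0.29 when scaled to the receptor list). Blvrb, biliverdin reductase, is abundant in red cell precursors and was at 2.37, 33.7 and 4.40 CPM. The red cell and platelet markers above, Tfrc apart, were likewise highest in aged vehicle, and their part in these values was not tested.

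The antioxidant response core TGACNNNGC was found on either strand in 7 of 25 promoters of 18 higher members and in 1 of 6 promoters of members within 1.5-fold. It stood in 14.4% of promoters of genes with at least 1 CPM and in 12.4% of all. The list was drawn from known targets, so the share describes these promoters and no more. A stretch of the Gclm promoter that holds the core on the opposite strand, in capitals, is shown from chr3:122245397-122245556 on the plus strand. Beside it stands a stretch of the promoter of Gp5, a platelet receptor at 0.561, 64.5 and 10.8 CPM, from chr16:30310782-30310901 on the minus strand, with the GATA core AGATAA in capitals, here on the opposite strand. That core was found in 5 of 15 promoters of the platelet list, in 6.68% of promoters of genes with at least 1 CPM and in 11.2% of all. Every measured platelet gene was higher, so no other members of that list can be set beside them.
Gclm: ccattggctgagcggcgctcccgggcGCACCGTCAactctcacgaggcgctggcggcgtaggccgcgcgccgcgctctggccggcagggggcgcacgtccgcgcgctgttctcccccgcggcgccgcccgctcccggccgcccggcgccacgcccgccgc
Gp5: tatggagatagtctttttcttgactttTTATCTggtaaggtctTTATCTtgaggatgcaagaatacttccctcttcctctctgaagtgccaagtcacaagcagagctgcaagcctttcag

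Ferritin and part of the lysosomal genes were higher. Ftl1 and Fth1, the ferritin chains, were at 407, 1059 and 653 CPM and at 365, 784 and 605 CPM. Hmox1, which frees iron from heme, was at 10.8, 23.8 and 15.9 CPM. Of 19 iron and heme genes 6 were higher and none lower. Mt1 and Mt2, metallothioneins that bind zinc, were at 81.7, 138 and 136 CPM and at 52.9, 121 and 112 CPM, at the same height in both aged libraries. Among 30 lysosomal genes 11 were higher and 1 lower (median 0.37), with Ctsd, an aspartic protease, at 147, 437 and 314 CPM. Lamp2, a membrane protein, was at 49.9, 117 and 59.5 CPM. Ctss, cathepsin S, was the lower member at 88.1, 50.5 and 53.3 CPM. Sqstm1, the autophagy adaptor sequestosome, was higher at 162, 330.2 and 241 CPM.

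Most genes for lipid mediators of inflammation and histamine were higher, as were the markers of platelets and mast cells. The table lists 19 genes of eicosanoid and histamine production, 15 of them higher and none lower. The part of platelet and mast cell RNA in them was not tested. Ptgs1, the constitutive cyclooxygenase, was at 0.317, 111 and 9.60 CPM. Tbxas1, thromboxane synthase, was at 0.244, 61.9 and 6.93 CPM. Alox12, platelet lipoxygenase, was at 0.244, 30.8 and 7.22 CPM. Of 17 measured integrins 13 were higher, with 4 of the 17 under 1 CPM in the young library. Itga2b and Itgb3, which pair as the fibrinogen receptor of platelets, were at 3.42, 416 and 45.0 CPM and at 30.9, 566 and 99.8 CPM. Itgav, the other partner of Itgb3, was also higher, at 90.5, 141 and 178 CPM, with fumarate highest. The leukocyte integrins Itgal and Itgb2 lay within 1.5-fold at 356, 342 and 382 CPM and at 181, 182 and 215 CPM.

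Genes of protein synthesis stayed mostly within the limit. The 45 large-subunit and 32 small-subunit ribosomal protein genes had medians of −0.32 and −0.34, with 1 and 0 past 1.5-fold, and the large-subunit median was 0.01 when scaled to the receptor list. Rplp0 was at 4117, 3056 and 3234 CPM. Eef1a1, the elongation factor that had the largest loss in CPM of all named genes, was at 9655, 6381 and 6230.2 CPM. Eif4ebp1, a repressor of cap-dependent translation, was at 121, 56.1 and 56.4 CPM. The ribosome assembly list had all 28 members within 1.5-fold (median 0.09, or 0.00 with upper-quartile scaling), and Myc, which drives it, was at 418, 313 and 332 CPM. Of 37 proteasome genes only Psmb10, an immunoproteasome subunit, was past 1.5-fold, at 62.9, 129 and 65.9 CPM. Of 28 endoplasmic reticulum genes 5 were higher, a share near the 16.8% of all measured genes, and none was lower (median 0.35). The higher members included Calr, a chaperone of newly made glycoproteins, at 709, 1372 and 1051 CPM. Ern1, a sensor of unfolded proteins, was at 6.39, 27.1 and 20.2 CPM.

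Some cell division genes were lower and many cell cycle inhibitors higher. Of 37 DNA replication genes 5 were past the limit, each of them lower (median −0.41, or −0.07 when scaled to the receptor list), with Lig1, the ligase of the lagging strand, at 287, 161 and 206 CPM. Pcna, the sliding clamp, was at 518, 318 and 405 CPM. The mitosis list had 4 of 30 lower, and its median of −0.32 was 0.01 when scaled to the receptor list. Mki67, the proliferation marker, was at 598, 417 and 498 CPM. Of 23 cell cycle inhibitors and p53 targets 13 were higher and 2 lower (median 0.60). Cdkn2a, which encodes 2 tumour suppressors and is a marker of senescence, was at 0.512, 13.6 and 5.27 CPM. Cdkn1a, an inhibitor of cyclin-dependent kinases, was at 344, 710.2 and 644 CPM. Eda2r, a death receptor that p53 induces, was at 1.73, 12.9 and 9.53 CPM. Both aged libraries were above young for each.

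Other p53 targets were higher by less, with Mdm2, its ubiquitin ligase, at 120.1, 196 and 165 CPM, Zmat3 at 68.3, 122 and 112 CPM and Phlda3 at 33.9, 68.3 and 57.4 CPM, while Trp53 itself was at 143, 162 and 159 CPM. Rbl2, a pocket protein of quiescent cells, was at 45.4, 120.5 and 126 CPM. The inhibitors Cdkn1b and Cdkn2c were lower at 68.8, 45.5 and 40.6 CPM and at 30.3, 18.3 and 18.3 CPM. Genes of cell death went both ways: the killers Pmaip1 and Bcl2l11 were at 16.1, 61.6 and 41.6 CPM and at 36.6, 15.6 and 13.9 CPM. Bmf was at 4.98, 1.68 and 1.66 CPM. Of the protectors, Bcl2, Bcl2l1 and Mcl1 lay within 1.5-fold, and Bcl2a1a was higher at 1.48, 4.34 and 2.32 CPM.

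Histone genes of S phase were lower in 17 of 24 cases in the table. Their transcripts normally lack a poly(A) tail, while the libraries were made from poly(A) RNA. H3c3 was at 15.1, 4.78 and 4.86 CPM and H4c4 at 4.19, 1.35 and 1.68 CPM. Linker histone H1f2 and H2bc4 went the other way at 13.2, 62.7 and 35.5 CPM and at 4.75, 15.4 and 7.96 CPM. They were the 2 members left when a mean of 10 CPM was required, with a median of 1.84 against −0.91 for a mean of 1 CPM. Of 25 regulators of DNA and histone methylation 21 lay within 1.5-fold, 2 were higher and 2 lower (median −0.28, or 0.05 when scaled to the receptor list). Ezh2, the polycomb methyltransferase of dividing cells, was at 284, 179.8 and 191 CPM, and its counterpart in resting cells, Ezh1, at 21.8, 36.5 and 27.9 CPM. Tet1, a dioxygenase that removes DNA methylation, was at 5.93, 1.22 and 0.65 CPM, and the polycomb reader Cbx2 at 13, 6.20 and 8.81 CPM. The clock genes were mostly within 1.5-fold, with Per1 at 48.5, 52.2 and 38.8 CPM and Ciart, a repressor of the clock, lower at 15.6, 5.27 and 4.54 CPM.

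**Figure D4:**
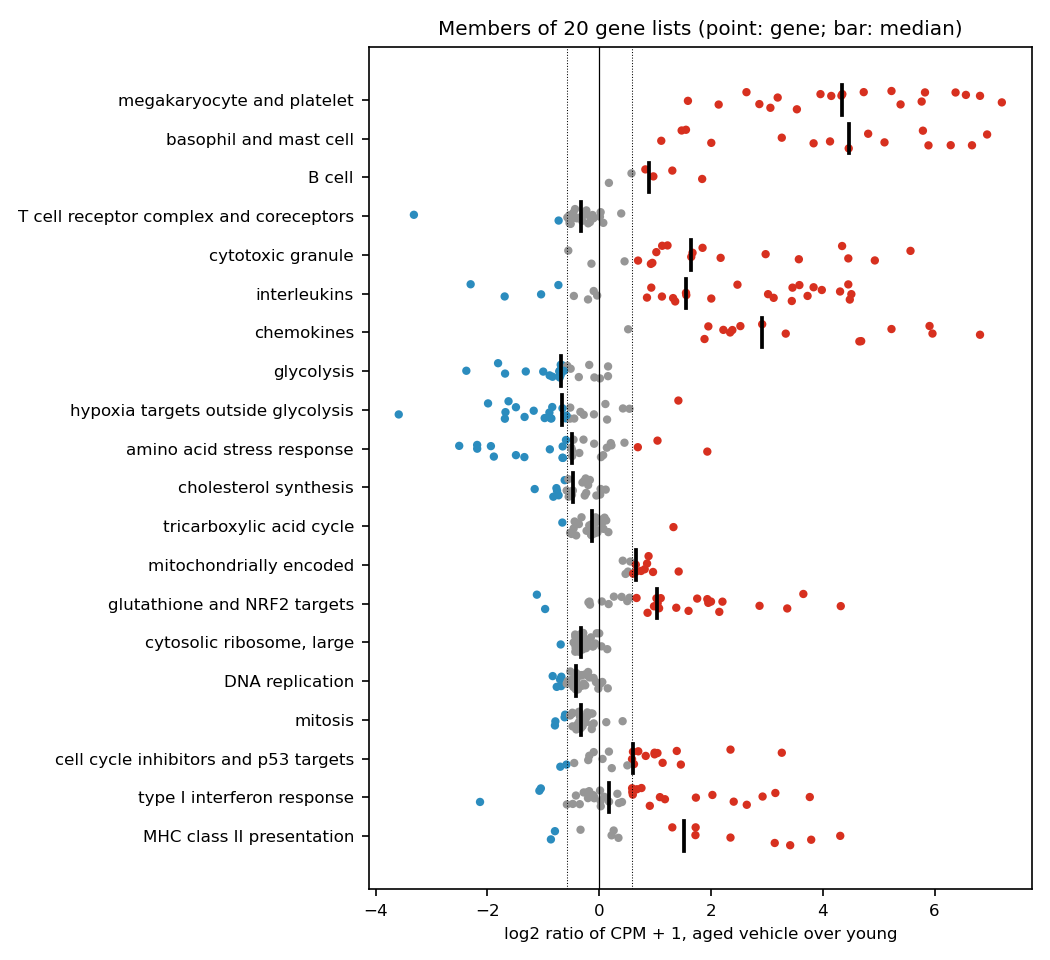
Log2 ratios of CPM + 1, aged vehicle over young, for the measured members of 20 gene lists; each point is a gene (red at least 1.5-fold higher, blue at least 1.5-fold lower, grey between, the limits as dotted lines) and the bar is the list median. Platelet and basophil or mast cell lists lie wholly to the right and glycolysis and hypoxia mostly to the left. Interferon genes lie on both sides, with more past the limit to the right.

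Interferon genes lay on both sides, with more of the listed members higher than lower, as over all measured genes (16.8% higher and 6.8% lower). Of 37 type I interferon response genes 15 were higher and 3 lower (median 0.18), and of 18 interferon-inducible GTPases 6 were higher and 3 lower (median 0.34). Members of the oligoadenylate synthetase family, which sense RNA, were higher in part, with Oasl2 at 3.29, 57.5 and 4.84 CPM and Oas1a at 1.68, 22.8 and 5.06 CPM, but Oas3 was at 56.0, 40.1 and 29.2 CPM. Rsad2, the antiviral viperin, was at 1.98, 17.6 and 2.82 CPM, whereas Isg15 was at 27.8, 31.6 and 6.5 CPM and Ifit1 at 14, 14.2 and 5.99 CPM. Guanylate-binding proteins were split, Gbp3 and Gbp7 higher at 28.1, 91.3 and 20.1 CPM and at 83.2, 182 and 47.1 CPM, and Gbp5 and Gbp10 lower at 165, 88.5 and 45.5 CPM and at 26, 10.9 and 3.70 CPM. The fumarate library was below aged vehicle for each of these genes. Summed over all listed members, the type I list was at 1563, 1604 and 914 CPM and the GTPases at 2468, 2773 and 956 CPM. Fumarate, the other aged library, thus lay below young in both sums. Several of these genes are near-identical copies, and their separate levels are uncertain.

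Of 14 genes of antigen presentation by MHC class II 8 were higher and 2 lower. H2-Aa, a chain of the class II molecule, was at 2.68, 72.2 and 7.87 CPM. Cd74, its invariant chain, was at 67.9, 226 and 58.6 CPM. Ciita, the master regulator, was at 0.39, 13.8 and 1.59 CPM. Fumarate lay nearer to young than to aged vehicle for all 3. B cells, dendritic cells and macrophages are known for these molecules, and their part was not tested. The summed macrophage markers were at 7.84, 66.3 and 38.9 CPM and the summed B cell markers at 11.4, 27.1 and 26.9 CPM. The lower members were Cd80, a co-stimulatory ligand, at 66.3, 36.0 and 45.6 CPM, and Ctss, given above. Class I genes had 2 of 21 higher and none lower.

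Signalling and structure showed single genes that stood out. Inhba, which encodes the activin beta A subunit, was at 6.76, 170.2 and 123 CPM. Tgfb1 was at 233, 446 and 325 CPM, while Tgfb3 and the receptor Acvrl1 were lower at 2.37, 0.637 and 0.794 CPM and at 4.15, 0.927 and 1.59 CPM. Semaphorins, guidance proteins that also act between immune cells, were higher in part, with Sema7a at 35.3, 152 and 145 CPM, Sema4f at 12.1, 52.9 and 62.7 CPM and, lower, Sema4c at 48.2, 15.5 and 20.8 CPM. Both aged libraries lay on the same side of young for these genes. Lmna, the nuclear lamin that activated cells make, was at 52.0, 264 and 249.5 CPM. Myo1e, a motor at the cell membrane, was at 4.95, 29.9 and 22.9 CPM, and Cnn3, a calponin, was lower at 114, 27.2 and 42.1 CPM. Tuba8 and the platelet tubulin Tubb1 were at 0.704, 50.3 and 6.42 CPM and at 0.0488, 7.76 and 2.24 CPM, against Tubb2b, which was lower at 29.1, 12.8 and 12.6 CPM.

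Vim, the intermediate filament protein, and Tmsb4x, a thymosin that binds actin, were among the genes with the largest gain in CPM, at 1814, 2906 and 4055 CPM and at 1881, 2711 and 3021 CPM. Vim was higher by 0.68 on the log2 scale and Tmsb4x by 0.53, the second within 1.5-fold, and Actb lay at 6113, 5317 and 7019.6 CPM. Serpina3g, a protease inhibitor with near-identical neighbours, was at 23.1, 929 and 65.3 CPM and is uncertain for that reason. S100a6 and Anxa1, calcium-binding proteins of differentiated cells, were at 3.76, 146 and 74.1 CPM and at 0.244, 28.6 and 4.91 CPM. The ion channels of T cells, Kcna3 and Kcnn4, lay within 1.5-fold at 12.8, 13.6 and 10.4 CPM and at 264, 245 and 272 CPM, whereas Kcnk5, a potassium channel, was higher at 12.8, 33.4 and 25.0 CPM.

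Families were also read off gene names alone, with no list drawn by hand. Of 206 name families with at least 8 measured protein-coding members, Ccl had the highest median log2 ratio, 2.45 over 10 genes with 8 higher. Clec, the C-type lectin receptors, followed among families of related genes (1.68, 7 of 10 higher and 1 lower), with Clec4e at 0.0244, 10.8 and 0.938 CPM. Myosins had 8 of 15 higher and none lower (median 0.72). The lowest median was that of Ifi, −0.61 with 7 of 13 lower and 3 higher. It was followed by Cbx (−0.52, 3 of 8 lower), Mcm (−0.47, 1 of 10) and Rad (−0.35, 2 of 18), the last of which adds a cohesin and repair genes that share only the name. These 4 medians exceed in size the shift of 0.33 that receptor scaling adds, whereas that of the Rps names (−0.31) does not.

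Some genes past 2-fold in the same direction were neighbours when genes with a mean under 1 CPM were skipped. Such neighbours can lie far apart, as in a run on chromosome 19 from Trpm6 to Gda that spanned 2723463 bases. Among genes with at least 1 CPM there were 54 runs of at least 3 neighbours that were higher and 5 that were lower, with 10.4% and 2.08% of genes past the limit. The longest held 8 genes on chromosome 14, 56082166 to 56262260 (mm10), with the basophil protease Mcpt8, the myeloid cathepsin Ctsg and the granzymes e, d, g, f, c and b in that order. Mcpt8 was at 0.122, 86.7 and 18.9 CPM and Ctsg at 0.0244, 44.8 and 4.62 CPM, with fumarate between the others. Gzmd and Gzmc were at 1.22, 104 and 198 CPM and at 31.5, 386 and 586 CPM, highest in fumarate. Neighbours with the same direction thus differed in the fumarate library. On chromosome 11, 83525778 to 83664683, the run was Ccl5, Ccl9, Ccl6, Ccl3 and Ccl4. Genes of such clusters are copies of each other by origin, so a run is not a set of independent genes.

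The longest lower run was on chromosome 1, 173468485 to 173698395, and held Ifi206, Ifi214, Ifi209 and Ifi208, interferon-inducible sensors of DNA of the HIN family. Ifi206 was at 13.6, 1.22 and 1.78 CPM, Ifi214 at 3.10, 0.775 and 0.967 CPM, Ifi209 at 15.4, 7.16 and 8.27 CPM and Ifi208 at 5.91, 0.348 and 0.144 CPM. Both aged libraries were below young for all 4. Ifi204 and Ifi205, of the same cluster, were higher at 1.01, 3.63 and 0.918 CPM and at 0.19, 3.00 and 1.33 CPM. Copies in this cluster are similar in sequence, and how reads were divided among them is uncertain.

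**Figure D5:**
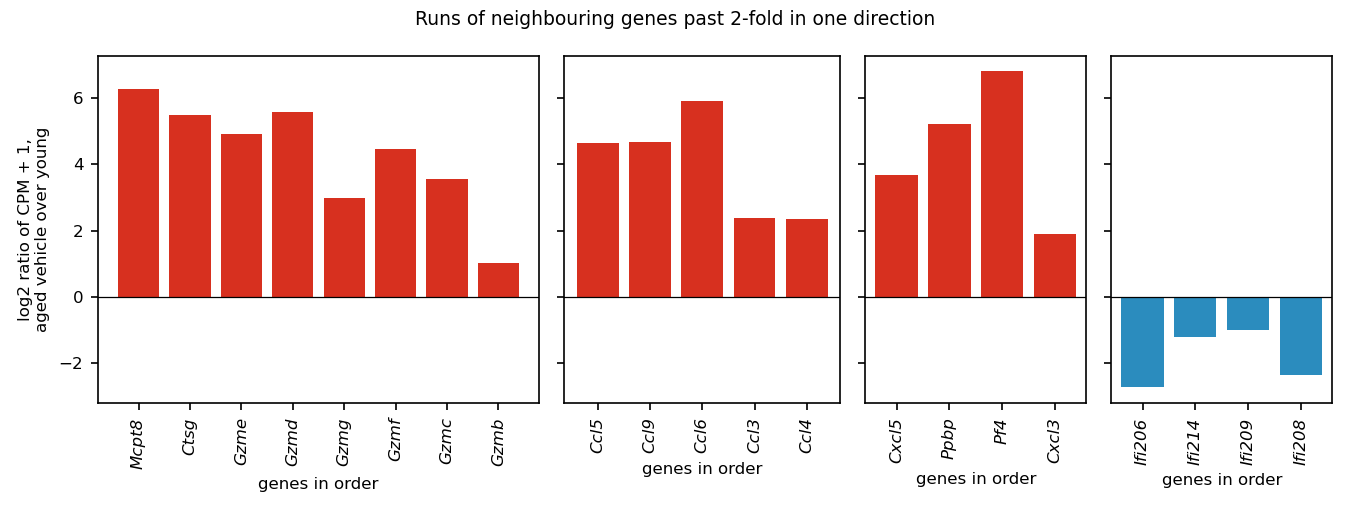
Log2 ratio of CPM + 1, aged vehicle over young, for the genes of 4 runs of neighbours past 2-fold, drawn in their order along the chromosome without distances. The granzyme, chemokine and platelet chemokine runs are all above 0, and the Ifi run is below 0.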

How the data were processed

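A SMARTER kit for polyadenylated RNA was used on 500 ng of total RNA, per the labels' protocols. The submitters' processing notes name STAR, Partek and the mouse build mm10; their versions, the annotation and the strand setting were not given in the sources used here, and antisense overlaps therefore cannot be resolved. The deposited values are CPM: each column adds to 1000000, although the authors named the table as counts. With a tolerance of 0.02 reads only 57.9% to 67.6% of nonzero values were whole reads, so no count model was fitted. Depth and intervals rest on the estimated worth of 1 read.

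The log2 ratio of CPM + 1 was taken between 2 libraries, with a 2-fold limit for genes and, in 86 lists, a 1.5-fold limit over members whose mean reached 1 CPM. Members and lists were chosen with earlier results of these data known. Named genes are the 15 highest and 15 lowest protein-coding genes outside other-cell lists (no predicted, receptor segment, mitochondrial, histone or sex genes), the 10 largest CPM differences each way, up to 4 members per list, a set of key genes, up to 3 members of the 5 highest and 5 lowest name families and the 5 highest and 5 lowest long noncoding RNAs; other list members were picked after their values were seen. Promoters are from RefSeq (GRCm38.p6), and positions of genes come from the table, its ends less 1 base. The gene counts were tested on simulated data. Some genes that the rule names are not reported here. Alternatives were other scalings, constants, minimums, a 3-fold limit and left-out gene classes. The tools were matplotlib 3.10.9, scipy 1.17.1, pandas 2.3.3 and numpy 2.4.6 under Python 3.11.15.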

Additional observations from a re-analysis of the deposited data

How the results depend on the processing

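The counts of 1595 genes above and 304 below young by 2-fold or more stayed within 1.5 times of these values with TMM, median-of-ratios and upper-quartile scaling, protein-coding genes alone, a minimum of 1 CPM, rescaling without mitochondrial genes, ribosomal protein genes and receptor segments, and without the other-cell lists. Higher genes also did so with a constant of 0.5 CPM (2019) and with scaling to the T cell receptor list (2282). Outside that range were higher genes at 851 with a constant of 5 CPM, 620 with a minimum mean of 10 CPM, 918 with a 3-fold limit, and lower genes at 169 with scaling to the T cell receptor list, 142 with a constant of 5 CPM, 154 with a minimum mean of 10 CPM, 73 with a 3-fold limit. Scaling to the receptor list raised the share of calls that were higher from 84.0% to 93.1%. Fewer genes are tested with a higher minimum, a larger constant lowers ratios of low genes and a higher limit counts fewer by construction; for the other changes the cause was not tested. Of 86 list medians, 34 were past 1.5-fold and 21 of these stayed so under every alternative run, while 30 medians changed sign under at least 1. Reversed from past the limit were the NK cell median (2.17 to −0.14) and the histone median (−0.91 to 1.84), both with a mean of 10 CPM required. No paired analysis was possible because each group has 1 library, and for the same reason no library could be left out. Genes under 0.174 CPM in aged vehicle or 0.0732 CPM in young are not distinguishable from 0 at these depths.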

Other observations

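Antigen receptor V segments were compared as shares of their locus. Of the summed CPM of 21 beta chain segments, Trbv13-2 took 9.76% (95% Wilson interval 9.03 to 10.6%) in the young library, 17.3% (95% Wilson interval 15.7 to 18.9%) in aged vehicle and 18.6% (95% Wilson interval 16.9 to 20.3%) in fumarate, intervals that cover counting error alone. The effective number of beta segments, the inverse sum of squared shares, was 15.4, 12 and 11.8 in that order, and that of the 94 alpha segments 61.9, 59.3 and 57.2. Both aged libraries thus had fewer effective beta segments than the young one, with 1 library each. Heavy chain V segments of antibodies summed to 0.854, 37.4 and 5.20 CPM, and the most used of them in aged vehicle, Ighv1-55, held 20.3% of that sum.

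Long intergenic noncoding RNAs passed 2-fold at shares near those of all genes. Of 146 intergenic noncoding RNAs with at least 1 CPM, 8.22% passed 2-fold upward and 2.05% downward. The shares were 10.4% and 2.08% over all genes with that minimum and 11.8% and 2.22% over protein-coding genes. Neat1, the scaffold of paraspeckles, was at 66.8, 156 and 77.3 CPM, Firre at 8.83, 22.7 and 17.3 CPM and Morrbid, a regulator of short-lived myeloid cells, at 0.244, 3.82 and 0.866 CPM. Snhg5, a host of small nucleolar RNAs, was lower at 69.7, 39.7 and 49.8 CPM, and Gimap1os, which overlaps a T cell GTPase on the other strand, at 18.2, 9.32 and 13.8 CPM and uncertain because the strand setting is unknown.

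By position, the median log2 ratio was 0.05 on chromosome 6, where 15% of genes were at least 2-fold higher, the largest share among the chromosomes; the antibody kappa, Klra and Clec clusters lie there. Among protein-coding genes split into 5 equal groups by gene span, 16.7% of the longest group were at least 2-fold higher, against 9.26% to 11.8% in the other 4. The 4 Y-linked genes listed were within 1.5-fold between the libraries, with Ddx3y at 60.7, 60.9 and 56.6 CPM and Uty at 19.3, 16.8 and 12.3 CPM. Nnt, a gene that differs between C57BL/6 substrains, was at 14.7, 15.6 and 13.5 CPM.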
